A study of Mus musculus with 18 samples.

Results

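Cholesterol synthesis, uptake and efflux genes were followed in mouse eosinophils, granulocytes of type 2 immunity, kept unstimulated or treated with *E. coli*, IFN-γ, IFN-γ + *E. coli* or IL-4. The members were chosen by gene symbol for their known roles in cholesterol metabolism. There were 31 members among 54232 genes listed in both sets of libraries. They comprised 18 synthesis enzymes, 5 genes of SREBP control, 5 LXR receptors and targets, and 3 genes of intracellular transport and storage.

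Eosinophil RNA from C57BL/6 mice was measured after microbial and cytokine stimuli in 18 libraries. Eosinophils came from peritoneal lavage of *Il5*-transgenic mice, which make eosinophils in excess, after negative selection with beads against Thy1.2 and B220. The first set of 12 libraries held unstimulated a, b and c, heat-inactivated *E. coli* 1 to 3, IFN-γ (50 ng/ml) 1 to 3, and IFN-γ + *E. coli* 1 to 3. The second set of 6 held unstimulated d, e and f and IL-4 (100 ng/ml) 1 to 3. Stimulation lasted 18 h, in DMEM medium with fetal calf serum. The age of the mice and the time in culture of unstimulated cells are not given in the sources used here. The libraries are described as biological replicates, but whether those of a group came from separate mice is not stated, so p-values measure only the spread between these samples.

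Total counts on genes ran from 1523808 to 2734041 per library in the set of 12, with a median of 1975355, and from 3625036 to 6482289 in the set of 6. Levels are given as CPM, which are counts on a gene per 1e6 counts on the genes tested, scaled by the TMM method of edgeR. A floor of 3 counts corresponded to 1.00 to 2.19 CPM in the set of 12 and to 0.497 to 0.833 CPM in the set of 6, and it covers counting error only. The sets differed in file layout and depth, so every stimulus was set against unstimulated cells of the same set. The *E. coli*, IFN-γ and IFN-γ + *E. coli* comparisons share unstimulated a, b and c and are therefore not independent of each other. Within the set of 6, unstimulated e stood apart from d and f. The chi-square per gene between libraries of a group was 22.85 and 21.68 for e with d and f, 7.603 between d and f, and 3.719 to 5.184 among the IL-4 libraries. Unstimulated e was also the deepest library, at 6482289 counts, and this measure grows with depth. IL-4 2, at 5909700 counts, had 3.719 and 5.184 with IL-4 1 and 3. The part of depth in these values was not tested. Rank correlations over genes were 0.954 and 0.963 for e with d and f, and 0.976 between d and f.

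Cholesterol is made from acetyl-CoA through the mevalonate pathway, lanosterol and a series of sterol intermediates. When membrane sterol is low, SCAP carries SREBP from the endoplasmic reticulum to the Golgi for cleavage, and the released factor turns on synthesis and uptake genes; INSIG proteins hold SCAP back when sterol is plentiful. Liver X receptors (LXR) sense oxysterols and turn on efflux transporters and *Srebf1*, so that synthesis and efflux usually answer sterol supply in opposite ways, as is well described in macrophages.

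Differential RNA levels were tested with edgeR's quasi-likelihood test, and p-values were adjusted over all genes tested by the Benjamini-Hochberg method. A gene is called higher or lower when its adjusted p is under 0.05, and a fold change is given as log2 with its standard error (± SE).

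The eosinophil label was checked against 8 marker genes. Their summed level was 1932 to 3663 CPM across the 18 libraries, and the eotaxin receptor gene *Ccr3* was the most abundant of them in every library, at 1196 to 2673 CPM. *Siglecf*, which encodes the surface lectin used to identify mouse eosinophils, ranged from 322 to 1167 CPM. *Ccr3* reached 3576 counts and *Siglecf* 2556 in the set of 12, where no gene had more than 4095, so if counts there end at the 4096 tags of 6 bases, these levels and the sums are too low and the changes distorted. A correction for shared tags, chosen after seeing the data, would raise the highest *Ccr3* count to 8454, and it moved *Siglecf* with IFN-γ + *E. coli* from −1.55 to −1.96 and *Ccr3* from 0.10 to −0.19, with no change of call for either gene. The granule gene *Epx* had 0 to 4 counts per library in the set of 12, at or near the floor, and 5 to 19 counts in the set of 6, and the granule gene *Prg2* stood at 12.5 to 67.2 CPM. The markers did not move as 1 group: of 5 tested in the set of 12, 1 was called higher and 2 lower with *E. coli*, 0 and 4 with IFN-γ, and 1 and 3 with IFN-γ + *E. coli*, and of 8 tested in the set of 6, 4 were higher and 1 lower with IL-4. *Siglecf* was lower with *E. coli* (log2 fold change −0.68), IFN-γ (−0.71) and IFN-γ + *E. coli* (−1.55) and higher with IL-4 (0.39), *Ccr3* was lower with IL-4 (−0.72), and *Ear6* was higher with *E. coli* (1.29), IFN-γ + *E. coli* (0.52) and IL-4 (1.34) and lower with IFN-γ (−0.93).

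Markers of other peritoneal cells were present as well, although the purity of the cells had been checked by flow cytometry before use. The paper states that cells were used above a purity threshold and describes the contaminating cells as mostly lymphocytes. The flow cytometry measurements themselves are not among the files. The 8 macrophage markers summed to 1800, 1622 and 1712 CPM in unstimulated a, b and c, to 1001, 928 and 1604 CPM with *E. coli*, to 2203, 2064 and 2165 CPM with IFN-γ and to 1782, 2005 and 2363 CPM with IFN-γ + *E. coli*. In the set of 6 they summed to 3332, 3678 and 4399 CPM in unstimulated d, e and f and to 2754, 2643 and 3124 CPM with IL-4. *Lyz2* led this list except in *E. coli* 1 and 2, where *Csf1r* did, and no macrophage marker was at 0 in any library. *Lyz2* reached 2437 counts in the set of 12, so the possible limit at 4096 tags bears on these sums too. The correction for shared tags would raise that count to 3702. It moved *Lyz2* with *E. coli* from −0.91 to −1.14, with no change of call. Of these 8 markers, 0 were called higher and 2 lower with *E. coli*, 3 and 1 with IFN-γ, 2 and 0 with IFN-γ + *E. coli*, and 0 and 3 with IL-4. Fewer cells of a type and less RNA per cell cannot be told apart in such libraries, and the part of macrophage RNA in the results on cholesterol genes was not tested. The 4 B-cell markers, led by *Cd79a* in the set of 12, summed to 85.7, 87.5 and 52.9 CPM in unstimulated a, b and c, to 23.3, 18.7 and 31.6 CPM with *E. coli*, to 36.4, 28.2 and 28.8 CPM with IFN-γ and to 48.2, 66.8 and 59.4 CPM with IFN-γ + *E. coli*. They went from 5.83, 5.30 and 13.8 CPM in unstimulated d, e and f to 18.6, 18.8 and 27.7 CPM with IL-4. Of 4 tested in the set of 12, 0 were higher and 4 lower with *E. coli*, 0 and 3 with IFN-γ and 0 and 0 with IFN-γ + *E. coli*, and of 3 tested in the set of 6, 2 were higher with IL-4.

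The 6 mast cell markers, led mostly by *Tpsb2* or *Cma1*, summed to 7.43 to 9.69 CPM in unstimulated a, b and c, 6.69 to 34.6 CPM with *E. coli*, 13.1 to 30.2 CPM with IFN-γ, where 1 of 2 tested markers was higher, and 36.5, 72.3 and 66.6 CPM with IFN-γ + *E. coli*, where both tested markers were higher. In the set of 6 they summed to 6.63 to 8.61 CPM unstimulated and 7.97 to 20.7 CPM with IL-4. The 5 neutrophil markers were led in every library by *Retnlg*, at 531 to 676 CPM in unstimulated a, b and c, 274.5 to 295 CPM with *E. coli*, 567 to 664 CPM with IFN-γ, 281 to 329.8 CPM with IFN-γ + *E. coli*, 1658 to 1978 CPM in unstimulated d, e and f and 707 to 792 CPM with IL-4. Other members of this list were low. *S100a9* was at 0.634 to 2.07 CPM in unstimulated a, b and c and 4.72 to 6.79 CPM in d, e and f. *Ly6g* was at 1.27 to 6.61 and 1.16 to 2.83 CPM, and *Camp* at no more than 0.373 and 0.833 CPM. Whether the *Retnlg* and *S100a8* RNA came from neutrophils was not tested. *Retnlg* was lower with *E. coli* (−1.02), IFN-γ + *E. coli* (−0.90) and IL-4 (−1.30), while *S100a8* was higher with *E. coli* (3.06), IFN-γ (2.20) and IFN-γ + *E. coli* (2.71). Of 3 neutrophil markers tested in the set of 12, 1 was higher and 1 lower with *E. coli*, 2 and 0 with IFN-γ, and 2 and 1 with IFN-γ + *E. coli*, and of 4 tested in the set of 6, 0 were higher and 1 lower with IL-4. The T-cell list of 4 summed to no more than 8.94 CPM, with 1 to 3 genes at 0 in every library. The part of these cells in the results on cholesterol genes was not tested.

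Of the 31 members, 24 had enough counts to be tested in the set of 12 and 27 in the set of 6. *Mvk*, *Idi1* and *Dhcr7* were tested in neither.

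With *E. coli*, 6 of 24 tested members were higher, where 13.5% of 9883 genes tested were higher, and 3 were lower, where 16.7% of all genes were lower. Those higher were *Mvd*, *Sc5d*, *Srebf1*, *Srebf2*, *Abca1* and *Npc1*, and those lower were *Ebp*, *Scap* and *Nr1h3*. The median log2 fold change was 0.13 over the members and −0.02 over all genes tested.

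With IFN-γ, 7 of 24 members were higher against 15.6% of all genes, and 2 were lower against 16% of all genes. *Sc5d*, *Srebf1*, *Insig2*, *Nr1h2*, *Abca1*, *Soat1* and *Npc1* rose, whereas *Ebp* and *Scap* fell. The members' median was −0.01 and that of all genes −0.03.

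IFN-γ + *E. coli* gave the most calls of the 4 stimuli, with 11 of 24 members higher against 23.9% of all genes, and 2 lower against 25.2%. *Mvd*, *Cyp51*, *Sc5d*, *Srebf1*, *Srebf2*, *Insig2*, *Nr1h2*, *Abca1*, *Mylip*, *Soat1* and *Npc1* rose, and *Ebp* and *Scap* fell. The median was 0.35 over the members and −0.04 over all genes.

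IL-4 raised 5 of 27 members, against 5.97% of 10556 genes tested, and lowered 1, against 4.35%. *Cyp51*, *Srebf1*, *Abca1*, *Abcg1* and *Mylip* were higher and *Srebf2* was lower. Leaving out each library in turn gave 2 to 6 members higher and 0 to 1 lower. Without IL-4 1 only *Srebf1* and *Mylip* were called higher, where 2.88% of all genes were, and without IL-4 2 or 3 they were joined by *Cyp51* alone, where 2.88% and 2.93% were. Without unstimulated e these 5 were called higher with *Stard4* (adjusted p = 0.0303), where 7.45% of all genes were. *Srebf2* lost its call without unstimulated e (adjusted p = 0.0618) or f (0.106) or any 1 IL-4 library (0.172, 0.133 and 0.133). The members' median was −0.18 and that of all genes 0.00. Counted over the 4 stimuli, 16 members were called in none. Of these, 3 were never tested, and *Fdft1*, *Fdps*, *Sqle*, *Tm7sf2* and *Hsd17b7* were tested in only 1 set. *Srebf1* and *Abca1* were called higher under all 4 stimuli, 2 of 23 members tested in both sets, where 43 of 9201 genes tested in both sets (0.467%) were. *Abca1* left this group without IL-4 1, 2 or 3, where its adjusted p with IL-4 was 0.0592, 0.0954 and 0.0574 and 30, 27 and 29 of all genes met the condition. With all 6 unstimulated libraries as 1 group neither member met it, 0 of 26, where 40 of 10671 genes did. Among the same genes, 8 of 23 members and 38.3% of all genes were called in none.

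**Figure D1:**
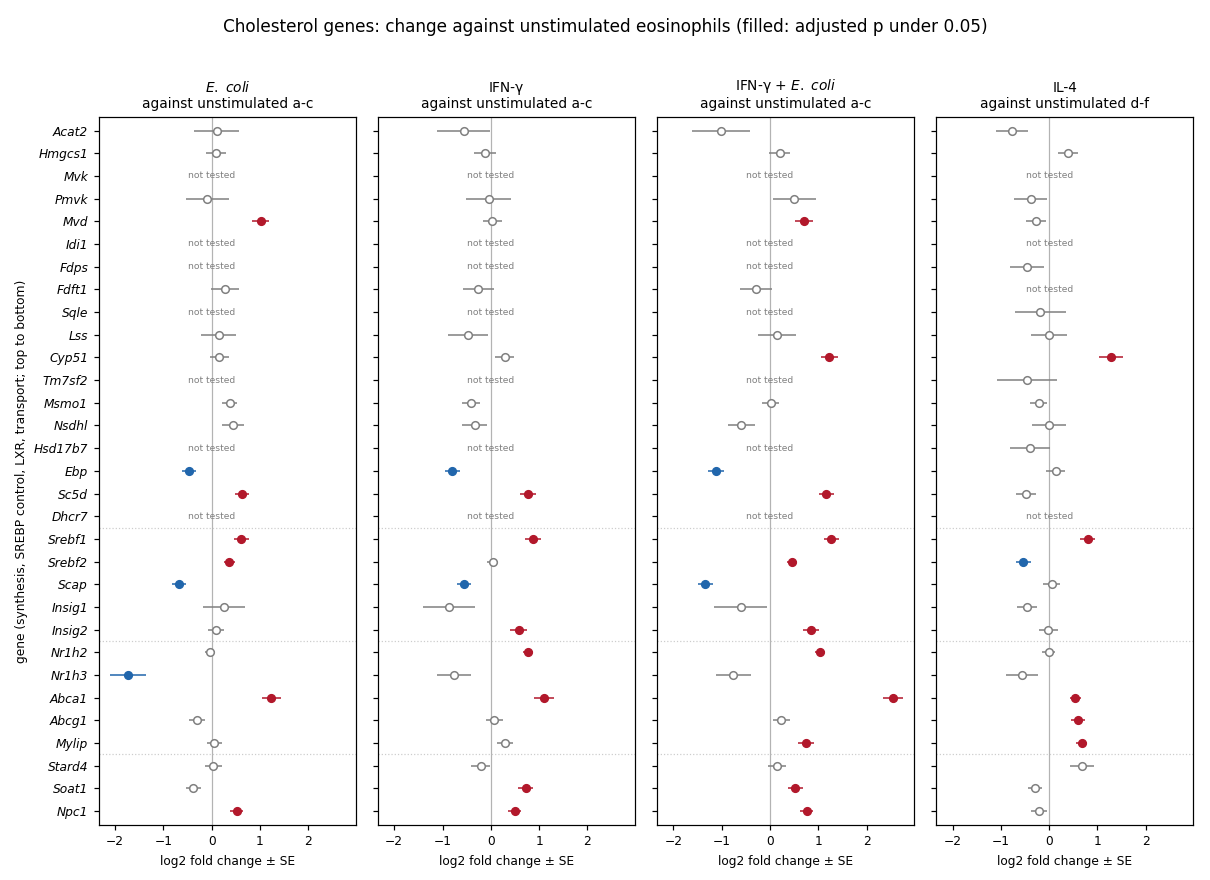
Log2 fold change of the tested members against unstimulated cells of the same set, for *E. coli*, IFN-γ, IFN-γ + *E. coli* and IL-4, with bars of 1 SE. Filled points passed an adjusted p under 0.05; *Abca1* with IFN-γ + *E. coli* lies farthest to the right, at 2.55, and *Srebf1* lies right of 0 for each stimulus.

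The pathway's 2 arms were then set side by side as the synthesis enzymes and the LXR receptors and targets. Over all genes tested, 13.5% were higher and 16.7% lower with *E. coli*, and 15.6% and 16% with IFN-γ. The shares were 23.9% and 25.2% with IFN-γ + *E. coli*, and 5.97% and 4.35% with IL-4. With *E. coli*, the 11 tested synthesis enzymes had a median log2 fold change of 0.16 with 2 higher and 1 lower, and the 5 LXR genes had −0.04 with 1 higher and 1 lower. With IFN-γ, the synthesis median was −0.26 with 1 higher and 1 lower, and the LXR median was 0.29 with 2 higher and 0 lower. With IFN-γ + *E. coli*, the medians were 0.15 for synthesis, with 3 higher and 1 lower, and 0.74 for LXR, with 3 higher and 0 lower. With IL-4, the median over 14 synthesis enzymes was −0.24 with 1 higher and 0 lower, and that over the LXR genes was 0.54 with 3 higher and 0 lower. The LXR median therefore lay above the synthesis median with IFN-γ, IFN-γ + *E. coli* and IL-4, and below it with *E. coli*, in lists too short for these medians to be more than a description. The LXR list mixes the receptor genes *Nr1h2* and *Nr1h3* with the targets *Abca1*, *Abcg1* and *Mylip*. With *E. coli* its median was the value of *Nr1h2*, while *Abca1* was higher (1.23), *Nr1h3* was lower (−1.72), and *Abcg1* and *Mylip* were not called. With all 6 unstimulated libraries as 1 group the order turned for IFN-γ and for IFN-γ + *E. coli*, where the LXR medians became −0.72 and 0.093 and lay below the synthesis medians, while IL-4 kept its order, so for those 2 stimuli the order depends on using unstimulated cells of the same set. Leaving out unstimulated a moved the synthesis median with IFN-γ to −0.07 and the LXR median with IFN-γ + *E. coli* to 0.93. Across all libraries left out in turn, the synthesis median with *E. coli* ranged from 0.09 to 0.38 and that with IFN-γ + *E. coli* from 0.03 to 0.37.

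Among synthesis enzymes, *Mvd* encodes the decarboxylase that makes isopentenyl diphosphate from mevalonate diphosphate (ENSMUSG00000006517, chr8:122433601-122443422 in GRCm38). It stood at 17.5, 20.3 and 19 CPM in unstimulated a, b and c, at 36.7, 34.4 and 43.5 CPM with *E. coli* 1 to 3, at 20.2, 19.0 and 18.3 CPM with IFN-γ, and at 24.1, 32.3 and 35.0 CPM with IFN-γ + *E. coli*. All *E. coli* and all IFN-γ + *E. coli* libraries lay above the unstimulated ones, and the IFN-γ libraries lay among them. *Mvd* rose by 1.01 ± 0.17 with *E. coli* (adjusted p = 0.000181) and by 0.70 ± 0.19 with IFN-γ + *E. coli* (adjusted p = 0.00414). With IFN-γ alone the estimate was 0.03 ± 0.20 (adjusted p = 0.93). *Mvd* in the set of 6 was at 15, 19.1 and 23.0 CPM in unstimulated d, e and f and at 18.3, 15.1 and 14 CPM with IL-4. These groups overlapped, and the IL-4 estimate of −0.27 ± 0.21 was not called (adjusted p = 0.466).

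*Cyp51* encodes lanosterol 14α-demethylase, which starts the conversion of lanosterol to cholesterol (ENSMUSG00000001467, chr5:4081145-4104746). Its levels were 17.5, 18.4 and 15.3 CPM in unstimulated a, b and c, 21.6, 19.1 and 15.8 CPM with *E. coli*, 18.5, 19.99 and 24.2 CPM with IFN-γ, and 43.8, 36.7 and 39.6 CPM with IFN-γ + *E. coli*. The combined stimulus thus stood clear of the other 3 groups, whose ranges overlapped or lay close together. The rise with IFN-γ + *E. coli* was 1.23 ± 0.18 (adjusted p = 1.94e-05), against 0.16 ± 0.19 with *E. coli* (adjusted p = 0.572) and 0.29 ± 0.20 with IFN-γ (adjusted p = 0.282). *Cyp51* in the set of 6 went from 8.05, 5.14 and 5.47 CPM in unstimulated d, e and f to 16.2, 14.1 and 14.5 CPM with IL-4, with no overlap. The IL-4 rise was 1.29 ± 0.25 (adjusted p = 0.00954), and without IL-4 1 it was 1.23 and no longer called (adjusted p = 0.061), nor was it with all 6 unstimulated libraries as 1 group (0.70, adjusted p = 0.0776). *Cyp51* shares 166 exon bases with *Akap9* on the opposite strand, and the sources used here do not give the strand setting of the counting.

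*Ebp*, on the X chromosome (ENSMUSG00000031168, chrX:8185329-8193512), encodes the sterol isomerase that shifts the double bond of zymosterol. It was at 65.6, 74.2 and 64.0 CPM in unstimulated a, b and c, 49.8, 41.1 and 56.8 CPM with *E. coli*, 42.5, 36.4 and 37.9 CPM with IFN-γ, and 31.4, 36.7 and 25.1 CPM with IFN-γ + *E. coli*. Every stimulated library of this set lay below every unstimulated one. The log2 fold changes were −0.47 ± 0.15 with *E. coli* (adjusted p = 0.0241), −0.80 ± 0.16 with IFN-γ (adjusted p = 0.000855) and −1.11 ± 0.17 with IFN-γ + *E. coli* (adjusted p = 2.28e-05). The *E. coli* call was lost without unstimulated a (adjusted p = 0.0563), unstimulated b (0.0929), *E. coli* 1 (0.0634) or *E. coli* 2 (0.161) when 1 library was left out, and also by DESeq2 (0.0555), without a filter (0.0629), in 1 model of 18 libraries (0.0775) and with all 6 unstimulated libraries as 1 group (0.489), and under that last setting the IFN-γ call was lost too (0.0824). With IL-4, *Ebp* was at 47.2, 38.2 and 31.4 CPM beside 32.8, 30.3 and 43.6 CPM in unstimulated d, e and f. Those groups overlapped, with an estimate of 0.13 ± 0.20 (adjusted p = 0.723).

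*Sc5d* encodes lathosterol oxidase, which adds the double bond that makes 7-dehydrocholesterol (ENSMUSG00000032018, chr9:42251595-42264256). It was at 49.2, 44.4 and 68.1 CPM in unstimulated a, b and c, at 84.4, 92.3 and 74.6 CPM with *E. coli*, at 78.9, 101 and 98.1 CPM with IFN-γ, and at 117, 115 and 135 CPM with IFN-γ + *E. coli*. Every stimulated library of the set was above every unstimulated one, so *Sc5d* and *Ebp*, which act close together in the pathway, moved in opposite directions under these 3 stimuli. The rises were 0.63 ± 0.15 with *E. coli* (adjusted p = 0.00435), 0.77 ± 0.16 with IFN-γ (adjusted p = 0.000992) and 1.17 ± 0.16 with IFN-γ + *E. coli* (adjusted p = 5.43e-06). Pooling all 6 unstimulated libraries lost the *E. coli* call (0.50, adjusted p = 0.0574). Its levels in the set of 6 were 37.2, 61.5 and 49.6 CPM in unstimulated d, e and f and 30.8, 43.0 and 33.2 CPM with IL-4. The groups overlapped, and the estimate of −0.48 ± 0.21 was not called (adjusted p = 0.186).

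The other synthesis enzymes were called in no comparison with unstimulated cells. *Hmgcs1*, which encodes the synthase that makes HMG-CoA for the mevalonate pathway, ranged from 13.7 to 27.7 CPM in the set of 12 and from 10.8 to 17.7 CPM in the set of 6. *Msmo1*, the C4-methylsterol oxidase gene, ranged from 18.5 to 40.5 CPM in the set of 12, with estimates of 0.37 ± 0.16 with *E. coli* (adjusted p = 0.0878) and −0.41 ± 0.18 with IFN-γ (adjusted p = 0.0926). *Nsdhl*, whose product removes the C4 carboxyl group, stood at 10.1 to 17.8 CPM unstimulated and 8.03 to 11.2 CPM with IFN-γ + *E. coli* in that set. Its estimate with the combined stimulus was −0.60 ± 0.28 (adjusted p = 0.0829), which became −0.83 (adjusted p = 0.0208) without unstimulated a. *Acat2*, *Pmvk*, *Fdft1* and *Lss* were tested at lower levels, from 1.10 to 15.8 CPM in the set of 12, where the SE of their log2 fold changes reached 0.60, so only large changes were detectable at this depth.

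The members with the fewest counts were *Mvk*, *Idi1*, *Fdps*, *Sqle*, *Tm7sf2*, *Hsd17b7* and *Dhcr7*, none of which passed the filter in the set of 12. *Idi1*, the isopentenyl diphosphate isomerase gene, was listed at 0 in all 6 libraries of the second set and had 0 to 10 counts in the first. *Idi1* has a copy, *Gm13502*, with 100% identity over 684 bases, so its counts are uncertain. *Fdps* likewise shares 1124 exon bases with *Gm43738*, *Tm7sf2* shares 532 with *Vps51*, *Acat2* resembles *Acat3* at 97.7% over 1477 bases, while *Fdft1* shares 774 exon bases with *Ctsb* on the opposite strand and resembles *Gm6781* at 97.44% over 1249 bases. On the opposite strand *Hmgcs1* shares 557 exon bases with *Gm48342* and *Lss* shares 381 with *4930483K19Rik*, so the values of all these members are uncertain too. *Mvk* and *Dhcr7* reached at most 2.65 and 2.27 CPM in any library. *Fdft1*, squalene synthase, passed only in the set of 12, while *Fdps*, *Sqle*, *Tm7sf2* and *Hsd17b7* passed only in the set of 6, where none was called with IL-4.

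Of the SREBP control genes, 3 of 5 were called with *E. coli*, 3 with IFN-γ, 4 with IFN-γ + *E. coli* and 2 with IL-4, where 30.2%, 31.6%, 49% and 10.3% of all genes were called in either direction. *Srebf1* encodes SREBP-1, which favours fatty acid synthesis and, as SREBP-1c, is itself an LXR target (ENSMUSG00000020538, chr11:60199089-60222581). It was at 31.7, 24.7 and 36.8 CPM in unstimulated a, b and c, 50.2, 51.2 and 43.0 CPM with *E. coli*, 50.9, 62.0 and 60.2 CPM with IFN-γ, and 73.0, 72.3 and 83.1 CPM with IFN-γ + *E. coli*. All stimulated libraries exceeded all unstimulated ones, and the combined stimulus lay above both single ones. In the set of 6 it went from 30.0, 33.3 and 37.4 CPM unstimulated to 56.5, 57.3 and 61.4 CPM with IL-4, again without overlap. The rises were 0.61 ± 0.16 with *E. coli* (adjusted p = 0.00559), 0.87 ± 0.16 with IFN-γ (0.000344), 1.27 ± 0.16 with IFN-γ + *E. coli* (2.07e-06) and 0.80 ± 0.15 with IL-4 (0.00679). With all 6 unstimulated libraries as 1 group the *E. coli* call was lost (0.36, adjusted p = 0.139), so it was then not called under all 4 stimuli. Its exons share 109 bases with *Rai1* on the opposite strand.

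*Srebf2* encodes SREBP-2, the form that drives cholesterol synthesis and uptake genes (ENSMUSG00000022463, chr15:82147181-82205379). Its levels were 110.3, 98.9 and 91.3 CPM in unstimulated a, b and c, 134, 131 and 122 CPM with *E. coli*, 113, 96.4 and 98.8 CPM with IFN-γ, and 134, 140.3 and 138 CPM with IFN-γ + *E. coli*. The libraries with *E. coli*, alone or combined, lay above the unstimulated ones, and those with IFN-γ alone overlapped them. *Srebf2* rose by 0.36 ± 0.11 with *E. coli* (adjusted p = 0.017) and by 0.46 ± 0.11 with IFN-γ + *E. coli* (adjusted p = 0.00241), with 0.04 ± 0.11 for IFN-γ alone (adjusted p = 0.849). The *E. coli* call was lost without unstimulated c (adjusted p = 0.0785), *E. coli* 1 (0.0621) or *E. coli* 2 (0.0542). With IL-4 *Srebf2* was at 30.1, 31.7 and 29.3 CPM, below 39.2, 47.5 and 44.7 CPM in unstimulated d, e and f, and it fell by 0.53 on the log2 scale (SE 0.15, adjusted p = 0.0477). That call was lost without unstimulated e (adjusted p = 0.0618), unstimulated f (0.106), IL-4 1 (0.172), IL-4 2 (0.133) or IL-4 3 (0.133), and also by DESeq2 (0.0542), without a filter (0.0589) and with at least 10 counts in every library (0.0512).

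*Scap* encodes the escort that carries SREBP to the Golgi (ENSMUSG00000032485, chr9:110333288-110384950). It was at 85.0, 71.0 and 64.4 CPM in unstimulated a, b and c, 53.0, 42.1 and 42.5 CPM with *E. coli*, 54.3, 48.7 and 46.4 CPM with IFN-γ, and 28.5, 27.4 and 31.7 CPM with IFN-γ + *E. coli*. Each stimulus lowered all 3 libraries below the unstimulated range, and the combination lay below both single stimuli. The log2 fold changes were −0.68 ± 0.14 with *E. coli* (adjusted p = 0.00126), −0.56 ± 0.15 with IFN-γ (adjusted p = 0.0069) and −1.34 ± 0.16 with IFN-γ + *E. coli* (adjusted p = 1.56e-06). The IFN-γ call was lost without unstimulated a, at −0.44 (adjusted p = 0.061). Pooling all 6 unstimulated libraries lost the calls with *E. coli* (−0.31, adjusted p = 0.324) and IFN-γ (−0.17, adjusted p = 0.593). With IL-4 *Scap* was at 39.8, 28.3 and 31.6 CPM beside 35.6, 29.2 and 31.3 CPM unstimulated, overlapping ranges with an estimate of 0.06 ± 0.18 (adjusted p = 0.875). *Scap* shares 985 exon bases with *5830462I19Rik* on the opposite strand, from which unstranded counts could not be separated.

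The INSIG genes encode the anchors that hold SCAP in the endoplasmic reticulum. *Insig2* ranged from 28.9 to 33.0 CPM in unstimulated a, b and c, from 30.8 to 34.7 CPM with *E. coli*, from 35.8 to 52.8 CPM with IFN-γ and from 46.7 to 62.5 CPM with IFN-γ + *E. coli*. It rose by 0.58 ± 0.17 with IFN-γ (adjusted p = 0.014) and by 0.85 ± 0.17 with the combination (adjusted p = 0.000335). The IFN-γ call was lost without unstimulated a (adjusted p = 0.0507) or IFN-γ 2 (0.0741). *Insig1*, itself an SREBP target, was near the floor in the set of 12, at 0.513 to 5.37 CPM, and was called in no comparison. *Insig1* in the set of 6 ranged from 18.6 to 24.4 CPM unstimulated and from 12.96 to 19.4 CPM with IL-4, with an estimate of −0.46 ± 0.21 (adjusted p = 0.202).

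Of the LXR genes, *Nr1h2* encodes LXRβ, the receptor found in most cell types (ENSMUSG00000060601, chr7:44549616-44553951). It was at 165, 159 and 154 CPM in unstimulated a, b and c, 142, 162 and 162 CPM with *E. coli*, 279, 273 and 264 CPM with IFN-γ, and 351, 307 and 326 CPM with IFN-γ + *E. coli*. Both groups that received IFN-γ lay far above the rest, and *E. coli* alone overlapped the unstimulated range. *Nr1h2* rose by 0.77 ± 0.10 with IFN-γ (adjusted p = 1.05e-05) and by 1.04 ± 0.10 with IFN-γ + *E. coli* (adjusted p = 1.12e-07), with −0.04 ± 0.10 for *E. coli* alone (adjusted p = 0.821). It was in the set of 6 at 138, 159 and 125 CPM unstimulated and 151, 141 and 127 CPM with IL-4, which overlapped, at −0.01 ± 0.13 (adjusted p = 0.97).

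*Nr1h3* encodes LXRα, the receptor whose expression is concentrated in liver, fat and macrophages (ENSMUSG00000002108, chr2:91184061-91202834). It was at 10.8, 10.1 and 6.20 CPM in unstimulated a, b and c, 2.45, 2.68 and 2.96 CPM with *E. coli*, 5.597, 6.15 and 3.92 CPM with IFN-γ, and 2.92, 6.03 and 6.595 CPM with IFN-γ + *E. coli*. The *E. coli* and IFN-γ libraries all lay below the unstimulated ones, those with IFN-γ narrowly (at most 6.15 against 6.20 CPM). The libraries with the combination overlapped both the unstimulated and the *E. coli* ranges. The *E. coli* group rested on 6 to 8 counts per library. *Nr1h3* fell by 1.72 on the log2 scale with *E. coli* (SE 0.37, adjusted p = 0.00145), while the estimates of −0.76 ± 0.35 with IFN-γ (adjusted p = 0.108) and −0.76 ± 0.36 with the combination (adjusted p = 0.0869) were not called. The latter became −0.98 (adjusted p = 0.0377) without unstimulated c. With IL-4 it was at 5.90, 5.98 and 8.30 CPM beside 6.39, 14.3 and 8.49 CPM unstimulated, overlapping groups with an estimate of −0.57 ± 0.33 (adjusted p = 0.319). In the *E. coli* libraries 2 of 8 macrophage markers, *Timd4* (−1.62) and *Lyz2* (−0.91), were lower as well, and their part in this fall was not tested.

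*Abca1* encodes the transporter that exports cholesterol to lipid-poor apolipoprotein A-I and is a classic LXR target (ENSMUSG00000015243, chr4:53030787-53159895). It was at 57.8, 41.8 and 99.9 CPM in unstimulated a, b and c, 161, 153 and 165 CPM with *E. coli*, 123, 151 and 164 CPM with IFN-γ, and 423, 403 and 363 CPM with IFN-γ + *E. coli*. All stimulated libraries were above all unstimulated ones, the single stimuli overlapped each other, and the combination was far above both. The rises were 1.23 ± 0.20 with *E. coli* (adjusted p = 0.000101), 1.10 ± 0.20 with IFN-γ (adjusted p = 0.000366) and 2.55 ± 0.20 with IFN-γ + *E. coli* (adjusted p = 5.36e-09), the last being 5.85-fold. The part of macrophage RNA in these rises was not tested.

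IL-4 raised *Abca1* from 324, 313 and 366 CPM in unstimulated d, e and f to 470, 521 and 471 CPM, with no overlap, a log2 fold change of 0.54 ± 0.11 (adjusted p = 0.0143). This call was lost without IL-4 1 (adjusted p = 0.0592), IL-4 2 (0.0954) or IL-4 3 (0.0574). The unstimulated groups themselves differed in *Abca1*, with means of 66.5 ± 30.0 CPM (SD, n = 3) in a to c and 334 ± 27.9 CPM (SD, n = 3) in d to f. Macrophage marker sums were also higher in d to f than in a to c. The sums in a to c may be too low, because *Lyz2*, which led them, had up to 2437 counts there. Cells and library preparation cannot be told apart as sources of this difference. With all 6 unstimulated libraries taken as 1 group the *Abca1* estimate turned to −0.67 with *E. coli* (adjusted p = 0.453) and −0.78 with IFN-γ (adjusted p = 0.383), and the calls with IFN-γ + *E. coli* (0.69, adjusted p = 0.362) and IL-4 (1.35, adjusted p = 0.109) were lost. The *Abca1* results against unstimulated cells thus rest on using the unstimulated libraries of the same set.

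**Figure D2:**
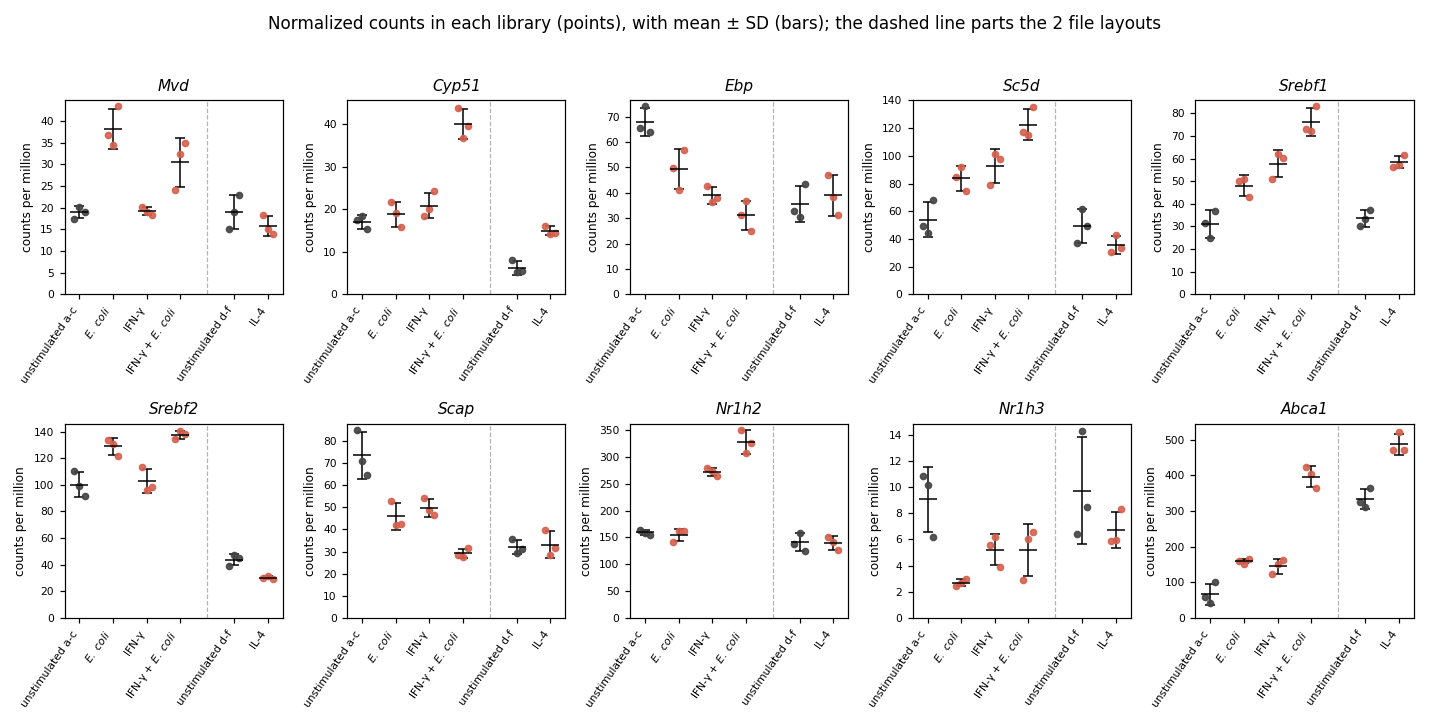
CPM of 10 members in each library by group, with points for libraries and bars for mean ± SD, and a dashed line between the set of 12 and the set of 6. *Abca1* lies between 363 and 423 CPM with IFN-γ + *E. coli*, above all other libraries of its set.

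*Abcg1* encodes the transporter that passes cholesterol to high-density lipoprotein and is another LXR target. It ranged from 73.4 to 106 CPM in unstimulated a, b and c and from 57.1 to 127 CPM in the stimulated libraries of that set, without a call against unstimulated cells. With IL-4 it stood at 240.1 to 279 CPM, above 141 to 197 CPM in unstimulated d, e and f, and rose by 0.60 ± 0.14 (adjusted p = 0.0253). That call was lost without IL-4 1 (adjusted p = 0.0817), IL-4 2 (0.0937) or IL-4 3 (0.121). *Mylip*, an LXR-induced ubiquitin ligase that limits lipoprotein uptake, went from 258 to 259 CPM unstimulated to 389 to 440 CPM with IL-4, a rise of 0.68 ± 0.11 (adjusted p = 0.00358), which held without each library in turn. *Mylip* also rose with IFN-γ + *E. coli*, from 107 to 187 CPM to 239 to 267 CPM, by 0.74 ± 0.16 (adjusted p = 0.000812). That call was lost when all 6 unstimulated libraries were pooled (0.093, adjusted p = 0.823). With IFN-γ alone it was not called at 0.29 ± 0.16 (adjusted p = 0.187), though it became 0.48 (adjusted p = 0.04) without unstimulated c.

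Transport and storage genes handle cholesterol inside the cell. *Npc1* encodes the protein that exports cholesterol from lysosomes, and it rose from 48.8 to 62.2 CPM in unstimulated a, b and c to 74.1 to 86.6 CPM with *E. coli*, 66.7 to 83.0 CPM with IFN-γ and 86.2 to 97.6 CPM with IFN-γ + *E. coli*. Its log2 fold changes were 0.52 ± 0.13 (adjusted p = 0.00552), 0.50 ± 0.14 (adjusted p = 0.00944) and 0.76 ± 0.14 (adjusted p = 0.000131), with no overlap with unstimulated libraries. *Npc1* shares 511 exon bases with *Rmc1* on the opposite strand. *Soat1* encodes the acyltransferase that esterifies cholesterol for storage, and it was at 29.7 to 31.3 CPM unstimulated, 21.7 to 24.2 CPM with *E. coli*, 47.2 to 52.6 CPM with IFN-γ and 35.8 to 47.5 CPM with the combination. *Soat1* rose by 0.72 ± 0.15 with IFN-γ (adjusted p = 0.00108) and by 0.53 ± 0.15 with IFN-γ + *E. coli* (adjusted p = 0.00813). Both calls were lost when all 6 unstimulated libraries were pooled (adjusted p = 0.132 and 0.367). The *E. coli* groups did not overlap, but the estimate of −0.38 ± 0.16 was not called (adjusted p = 0.0726), although it was with the pooled libraries (−0.73, adjusted p = 0.0128). *Stard4*, which encodes a sterol carrier and is an SREBP-2 target, ranged from 19.99 to 32.9 CPM in the set of 12 and was not called there. With IL-4 it was at 12.8 to 17.3 CPM beside 7.50 to 12.1 CPM unstimulated, at 0.68 ± 0.25 (adjusted p = 0.115), and it became 0.90 (adjusted p = 0.0303) without unstimulated e. Neither *Npc1* nor *Soat1* was called with IL-4.

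Adding *E. coli* to IFN-γ was tested by comparing IFN-γ + *E. coli* with IFN-γ. Of 24 members, 5 were called, 4 higher and 1 lower, where 12.2% of all genes were called in either direction. *Abca1* was higher by 1.45 ± 0.19 (adjusted p = 3.54e-05) and *Cyp51* by 0.94 ± 0.18 (adjusted p = 0.00205), *Mvd* was higher by 0.68 ± 0.19 (adjusted p = 0.0266) and *Srebf2* by 0.42 ± 0.11 (adjusted p = 0.02). *Scap* fell by a further 0.78 on the log2 scale (SE 0.17, adjusted p = 0.00498). The *Mvd* call was lost without IFN-γ 1 (adjusted p = 0.0626), IFN-γ 2 (0.0846), IFN-γ 3 (0.0716), IFN-γ + *E. coli* 2 (0.101) or IFN-γ + *E. coli* 3 (0.0976), and that of *Srebf2* without IFN-γ 2 (0.105), IFN-γ 3 (0.0656) or IFN-γ + *E. coli* 2 (0.0703). *Mylip* became called without unstimulated a (adjusted p = 0.0251) or IFN-γ 3 (0.0353), from 0.45 ± 0.16 (adjusted p = 0.0731) with all libraries. Of the cell markers, 3 of 4 for B cells and 1 of 2 for mast cells were higher, 1 of 3 for neutrophils was lower, 1 of 5 for eosinophils was higher and 2 lower, and 0 of 8 for macrophages were called. Their part in these calls was not tested.

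Adding IFN-γ to *E. coli* called 12 of 24 members, 9 higher and 3 lower, where 32.8% of all genes were called. All LXR genes but *Nr1h3* were higher, with *Abca1* at 1.31 ± 0.18 (adjusted p = 1.77e-05), *Nr1h2* at 1.08 ± 0.10 (1.22e-07), *Mylip* at 0.68 ± 0.16 (0.00263) and *Abcg1* at 0.54 ± 0.18 (0.0254). *Cyp51* was higher by 1.07 ± 0.18 (adjusted p = 0.000111), *Sc5d* by 0.54 ± 0.15 (0.00874), *Srebf1* by 0.66 ± 0.15 (0.00209), *Insig2* by 0.76 ± 0.16 (0.00136) and *Soat1* by 0.91 ± 0.16 (0.000169). *Nsdhl* was lower at −1.04 ± 0.26 (adjusted p = 0.00485), *Ebp* at −0.64 ± 0.17 (0.00703) and *Scap* at −0.65 ± 0.17 (0.00515). The *Abcg1* call was lost without *E. coli* 1 (adjusted p = 0.134), *E. coli* 2 (0.0542), IFN-γ + *E. coli* 1 (0.0679) or IFN-γ + *E. coli* 3 (0.137). Calls appeared for *Acat2* without *E. coli* 3, at −1.46 (adjusted p = 0.0467), and for *Nr1h3* without IFN-γ + *E. coli* 1, at 1.22 (adjusted p = 0.0465). In this comparison 5 of 8 macrophage markers, 4 of 4 B-cell markers, both tested mast cell markers and 1 of 3 neutrophil markers were higher with 0 lower, and 3 of 5 eosinophil markers were lower with 0 higher. Their part in the members' calls was not tested.

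Whether the combined stimulus departed from the sum of the single log2 changes was tested as an interaction. No member was called by edgeR, 0 of 24, where 4.62% of all genes were called. At an unadjusted p under 0.05 edgeR gave 3 members, *Cyp51*, *Nr1h2* and *Nr1h3*, where 16.8% of all genes passed, and DESeq2 gave 0 adjusted and 2 unadjusted, *Cyp51* and *Nr1h3*, where 13.3% passed. The interaction was 0.78 ± 0.27 for *Cyp51* (adjusted p = 0.109), 1.72 ± 0.56 for *Nr1h3* (adjusted p = 0.0878) and 0.31 ± 0.14 for *Nr1h2* (adjusted p = 0.286). *Abca1*, with the largest combined rise among the members, had an interaction of 0.21 ± 0.27 (adjusted p = 0.768). Of the cell markers, 4 of 4 for B cells and 1 of 8 for macrophages were called above 0, 1 of 3 for neutrophils was called below 0, and 0 of 5 for eosinophils and 0 of 2 for mast cells were called. The part of such cells in the interaction was not tested.

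The IL-4 response was compared with each response in the set of 12 in 1 model of 18 libraries, where a negative value means that the change with IL-4 was lower. Against IFN-γ + *E. coli*, 11 of 26 tested members differed, 2 upwards and 9 downwards, where 39.2% of 10671 genes tested differed. *Abca1* differed by −2.07 ± 0.26 (adjusted p = 1.85e-06), *Sc5d* by −1.71 ± 0.26 (2.11e-05), *Nr1h2* by −1.11 ± 0.16 (7.69e-06) and *Srebf2* by −1.05 ± 0.16 (2.73e-05). *Scap* differed by 1.33 ± 0.23 (adjusted p = 7.48e-05) and *Ebp* by 1.19 ± 0.26 (0.000997), the genes that fell with IFN-γ + *E. coli*. *Mvd* (−1.04), *Insig2* (−0.93), *Npc1* (−1.03), *Soat1* (−0.88) and *Srebf1* (−0.54) were the remaining calls. For *Cyp51*, raised by both stimuli, the difference was 0.00 ± 0.28 (adjusted p = 1). The *Srebf1* call (adjusted p = 0.0402) was lost without unstimulated a (0.0749), b (0.111) or f (0.0956), IFN-γ + *E. coli* 2 (0.0516) or 3 (0.114), or IL-4 1 (0.0748) or 2 (0.0678). Responses of the cell markers differed too, with 4 of 7 eosinophil markers upwards and 1 downwards, 4 of 8 macrophage and 2 of 4 neutrophil markers downwards and 2 of 4 B-cell markers upwards, and their part was not tested.

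Against the IFN-γ response, 9 of 26 members differed, 4 upwards and 5 downwards, where 27.8% of all genes differed. *Cyp51* differed by 0.97 ± 0.29 (adjusted p = 0.0157), called higher with IL-4 and not called with IFN-γ, and *Ebp* by 0.90 ± 0.26 (0.0112), called lower with IFN-γ and not called with IL-4. *Sc5d* (−1.28), *Soat1* (−1.04), *Nr1h2* (−0.82) and *Npc1* (−0.73) had been called higher with IFN-γ and were not called with IL-4, while *Srebf2* (−0.60) was called lower with IL-4 and not called with IFN-γ. *Scap* (0.59, adjusted p = 0.0479) lost its call without any 1 library other than unstimulated c, unstimulated d and IL-4 2, with adjusted p from 0.0502 without *E. coli* 1 to 0.161 without IL-4 1. *Stard4* (0.84, adjusted p = 0.0388) lost it without unstimulated a (0.102), c (0.0741), d (0.0805) or f (0.0752), IFN-γ 1 (0.062), 2 (0.0819) or 3 (0.0697), or IL-4 1 (0.0951) or 3 (0.0691). A call for *Abca1* appeared without unstimulated c, at −1.02 (adjusted p = 0.000955), for *Mylip* without unstimulated a, at 0.56 (adjusted p = 0.0289), and for *Insig2* without IFN-γ 1 (adjusted p = 0.0268) or IL-4 2 (0.0239). Here 4 of 7 eosinophil markers differed upwards and 1 downwards, 1 of 8 macrophage markers upwards and 4 downwards, 3 of 4 B-cell markers upwards and 3 of 4 neutrophil markers downwards, and their part was not tested.

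Against the *E. coli* response, 10 of 26 members differed, 4 upwards and 6 downwards, where 28.1% of all genes differed. *Cyp51* (1.12 ± 0.29, adjusted p = 0.00517) and *Abcg1* (0.88 ± 0.24, adjusted p = 0.00792) had been called higher with IL-4 and not called with *E. coli*, and *Mvd* (−1.31), *Sc5d* (−1.12) and *Npc1* (−0.74) higher with *E. coli* and not called with IL-4. *Srebf2* (−0.91, adjusted p = 0.000203) was higher with *E. coli* and lower with IL-4. *Scap* (0.72, adjusted p = 0.0147) lost its call without unstimulated a (0.0618) or IL-4 1 (0.0606). *Mylip* (0.60, adjusted p = 0.0383) lost it without unstimulated b (0.0808), c (0.163), d (0.0543) or f (0.0586), *E. coli* 1 (0.0814), 2 (0.0775) or 3 (0.0527), or IL-4 2 (0.0882) or 3 (0.0606). *Abca1* (−0.71, adjusted p = 0.0468) kept its call only without unstimulated c, d or e, IFN-γ 1 or 3, or IFN-γ + *E. coli* 3, and otherwise had adjusted p from 0.0518 without IFN-γ + *E. coli* 1 to 0.141 without unstimulated a. *Msmo1* (−0.60, adjusted p = 0.0493) kept its call only without *E. coli* 3, IFN-γ + *E. coli* 3, unstimulated d or IL-4 3, and otherwise reached adjusted p of 0.162 without *E. coli* 2. Calls appeared for *Stard4* (0.84, adjusted p = 0.0381) and *Nr1h3* (1.52, adjusted p = 0.021) without unstimulated e, and for *Ebp* without unstimulated f (0.0253) or IL-4 3 (0.0404). Of the markers, 3 of 7 for eosinophils differed upwards and 1 downwards, 1 of 8 for macrophages upwards and 1 downwards, 4 of 4 for B cells upwards and 1 of 4 for neutrophils downwards, and their part was not tested.

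Neighbouring pathway genes were counted in the same way, beside all genes tested, of which 13.5% were higher and 16.7% lower with *E. coli*, 15.6% and 16% with IFN-γ, 23.9% and 25.2% with IFN-γ + *E. coli*, and 5.97% and 4.35% with IL-4. Of 13 fatty acid genes, 8 were tested in the set of 12, with 0 higher and 2 lower with *E. coli*, 2 and 1 with IFN-γ, and 2 and 3 with IFN-γ + *E. coli*, and 10 in the set of 6, with 1 and 1 with IL-4. *Scd2*, a desaturase gene and SREBP-1 target, was at 0.634 to 2.24 CPM in unstimulated a, b and c, at or close to the floor, and at 8.40 to 23.5 CPM with IFN-γ and 24.1 to 35.6 CPM with IFN-γ + *E. coli*. It also rose from 9.28 to 16.7 CPM to 49.7 to 53.7 CPM with IL-4, by 2.04 ± 0.21 (adjusted p = 0.000258). *Me1*, the cytosolic malic enzyme gene, rose by 1.23 ± 0.40 with IFN-γ (adjusted p = 0.0243) and by 2.52 ± 0.35 with IFN-γ + *E. coli* (adjusted p = 8.04e-06), and fell by 1.75 on the log2 scale with IL-4 (adjusted p = 0.0311). *Acss2*, which makes acetyl-CoA from acetate, was lower with *E. coli* at −1.24 ± 0.20 (adjusted p = 8.57e-05) and with the combination at −1.11 ± 0.21 (adjusted p = 0.000249). *Ch25h*, which makes the LXR ligand 25-hydroxycholesterol, was the only tested gene of 4 on the oxysterol list. It rose by 1.24 ± 0.33 with *E. coli* (adjusted p = 0.00713) and by 2.21 ± 0.18 with IL-4 (adjusted p = 9.61e-05). *Ch25h* was not called with IFN-γ (−0.56) or IFN-γ + *E. coli* (−0.07), and was called lower for IFN-γ + *E. coli* against *E. coli* (−1.31).

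Of 9 LXR partners and further targets, 0 were higher and 2 lower with *E. coli*, 1 and 3 with IFN-γ, 1 and 4 with IFN-γ + *E. coli*, and 0 and 0 of 8 tested with IL-4. *Smpdl3a*, an LXR-responsive phosphodiesterase gene, went from 607 to 707 CPM unstimulated to 139 to 152 CPM with *E. coli* (−2.14 ± 0.12, adjusted p = 4.37e-10), and was lower with the combination too (−1.80 ± 0.12, adjusted p = 8.91e-10). It thus moved opposite to *Abca1* under these stimuli. Of 13 uptake and sterol transfer genes, 11 were tested, with 0 higher and 5 lower with *E. coli*, 2 and 2 with IFN-γ, 2 and 5 with the combination, and 2 and 3 with IL-4. The scavenger receptor gene *Cd36* fell with *E. coli* (−1.43 ± 0.22, adjusted p = 7.4e-05) and with IL-4 (−1.77 ± 0.18, adjusted p = 0.000223) and rose with IFN-γ (1.05 ± 0.20, adjusted p = 0.000418). With IFN-γ + *E. coli*, *Cd36* was at 35.8 to 45.5 CPM, below 53.2 to 84.6 CPM in unstimulated a, b and c. *Nceh1*, an esterase gene, was lower with IFN-γ (−1.05 ± 0.17, adjusted p = 0.000113) and the combination (−1.08 ± 0.18, adjusted p = 5.17e-05), and the lysosomal lipase gene *Lipa* was lower with IL-4 (−1.57 ± 0.26, adjusted p = 0.00408). The isoprenoid list of 8 and the SREBP processing list of 8 held no called gene of 2-fold or more, with at most 2 higher and 0 lower in any comparison with unstimulated cells.

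Promoter sequences around annotated starts were read from RefSeq (GRCm38.p6) for 25 of the 31 members. *Fdps*, *Fdft1*, *Sqle*, *Abcg1*, *Stard4* and *Npc1* had no entry. Motifs were searched on both strands in 32851 promoters of 27025 genes, and a gene was counted when any of its promoters matched. The sterol regulatory element TCACNCCAC was in 1.24% of promoters, 1.44% of genes and 1 of 25 members, *Hmgcs1*. The E-box CACGTG was in 7.15% of promoters, 8.09% of genes and 6 members, *Hsd17b7*, *Sc5d*, *Dhcr7*, *Scap*, *Insig1* and *Abca1*. CCAAT, bound by NF-Y, was in 37.4% of promoters, 41.1% of genes and 20 members. An LXR-type pair of NGGTNA repeats in the same direction, 4 bases apart, was in 0.718% of promoters, 0.818% of genes and 2 members, *Srebf1*, which has 3 promoters in the table, and *Abca1*, which has 1. A match describes letters only and shows neither binding nor a cause of the RNA changes. A missing match to a fixed string near the start does not show that a gene lacks such an element. The windows around the LXR-type pairs are shown as the only matches of that motif among the 25 members. That of *Hmgcs1* is shown for comparison as the only match of TCACNCCAC. The *Srebf1* pair lies in only 1 of its 3 promoters, and counts per gene do not show which start was used. *Mylip*, another LXR target, has 1 promoter entry and no such pair. Capitals mark the motif, which in the *Abca1* and *Srebf1* windows reads as NGGTNA pairs on the strand opposite to the one printed. It lies in the *Abca1* window on the minus strand at chr4:53159907-53160002, from −67 to −52 relative to the start, in the *Srebf1* window on the minus strand at chr11:60210598-60210693, from −182 to −167, and in the *Hmgcs1* window on the plus strand at chr13:119690174-119690262, from −137 to −129. The *Abca1* and *Hmgcs1* windows lie upstream of the annotated gene, and the *Srebf1* window lies inside the *Srebf1* gene before an internal start. No window overlaps an annotated exon.
Abca1: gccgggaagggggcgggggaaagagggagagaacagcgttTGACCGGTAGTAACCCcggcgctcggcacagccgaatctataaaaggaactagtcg
Srebf1: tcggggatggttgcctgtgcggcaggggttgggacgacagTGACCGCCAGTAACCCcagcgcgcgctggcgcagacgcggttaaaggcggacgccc
Hmgcs1: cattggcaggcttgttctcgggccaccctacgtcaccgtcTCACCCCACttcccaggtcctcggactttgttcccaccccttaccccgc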

How the data were processed

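The counts were deposited by the authors as tables of reads or molecules per gene, and no reads were processed here. The sources name fastp 0.20.1, STAR 2.7.2a, TopHat2 2.1.0 and HTSeq 0.6.1, but which libraries went through which tools, and the strand setting of the counting, are not given in the sources used here. Genes were matched by Ensembl ID, which succeeded for 98.27% and 99.72% of the genes listed in the sets of 12 and 6. In the set of 12, 21.1 to 39.4% of counts lay on entries that are not genes and were left out. The highest gene count there was 4095, just under the 4096 tags that 6 bases allow, against 191131 in the set of 6. The highest member count there was 735.

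Tests used R 4.3.3 with edgeR 4.0.16 (limma 3.58.1) and were repeated with DESeq2 1.42.0. Genes were filtered by edgeR's default rule, normalised by TMM, and p-values were adjusted over all genes tested. The code was tested on simulated data. Every library's value is given for members called with at least a 2-fold change against unstimulated cells and for *Srebf1*, *Srebf2*, *Nr1h2* and *Nr1h3*. The members and lists were chosen with earlier results of these data known. The correction for shared molecular tags was chosen after seeing the data. Certain items are withheld and were left out.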

Additional observations from a re-analysis of the deposited data

How the results depend on the processing

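Members were retested under other settings; values are log2 fold changes or counts of members, and the cause of each shift was not tested. With all 6 unstimulated libraries as 1 group, *Abca1* reversed with *E. coli* (−0.67, adjusted p = 0.453) and IFN-γ (−0.78, 0.383), members higher with *E. coli* and IL-4 were 3 each (7.54% and 6.48% of all genes) and those lower with IFN-γ + *E. coli* 5 (19% of all genes), synthesis medians were 0.35 with *E. coli* and 0.35 with IFN-γ + *E. coli*, and LXR medians were −0.67 with *E. coli*, −0.72 with IFN-γ, 0.093 with IFN-γ + *E. coli* and 1.13 with IL-4. Under that setting calls were also lost with *E. coli* for *Ebp* (−0.20), *Sc5d* (0.50), *Srebf1* (0.36) and *Scap* (−0.31), with IFN-γ for *Ebp* (−0.52), *Scap* (−0.17) and *Soat1* (0.39), with IFN-γ + *E. coli* for *Abca1* (0.69), *Mylip* (0.093) and *Soat1* (0.21), and with IL-4 for *Cyp51* (0.70) and *Abca1* (1.35). They were gained with *E. coli* for *Abcg1* (−1.11) and *Soat1* (−0.73), with IFN-γ for *Msmo1* (−0.56), *Insig1* (−2.81) and *Nr1h3* (−1.03), and with IFN-γ + *E. coli* for *Acat2* (−1.61), *Insig1* (−2.55) and *Nr1h3* (−1.01). Requiring at least 2-fold, by construction fewer members counted: 2 higher and 1 lower with *E. coli* (3.54% and 6.81% of all genes), 1 and 0 with IFN-γ (5.02% and 6.99%), 5 higher with IFN-γ + *E. coli* (9.26%), 1 and 0 with IL-4 (3.09% and 1.44%), 1 for IFN-γ + *E. coli* against IFN-γ (4.09%), 4 against *E. coli* (13.4%), and 2 and 3 for the IL-4 response against the IFN-γ (16.8%) and *E. coli* (16.7%) responses. With DESeq2, without a filter, and with at least 10 counts, 0 members were lower with IL-4 (5.31%, 2.87% and 4.95% of all genes). With only the 6 libraries compared, IFN-γ + *E. coli* against IFN-γ gave 3 (10.7% of all genes), with *Mvd* (adjusted p = 0.066) and *Srebf2* (0.0593) lost, and *Abcg1* was lost against *E. coli* (0.0543). *Mvd* against IFN-γ was also lost by DESeq2 (0.0673) and without a filter (0.0712), and *Srebf2* without a filter (0.0946). The *Srebf1* difference between IL-4 and IFN-γ + *E. coli* was lost by DESeq2 (0.0542), without a filter (0.241), at 10 counts or more (0.139) and with counts corrected for shared tags (0.0577). Against the IFN-γ response, *Scap* was lost by DESeq2 (0.0888) and its size factors (0.0605), *Stard4* by DESeq2 (0.0665), and both, *Cyp51* (0.0711) and *Srebf2* (0.0865) without a filter. Against the *E. coli* response, *Msmo1* was lost by DESeq2 (0.0755), without a filter (0.213), at 10 counts or more (0.0737) and with corrected counts (0.0504), *Scap* without a filter (0.0531), and *Abca1* at 10 counts or more (0.0653). Calls were gained at 10 counts or more for *Soat1* with *E. coli* (0.0489), *Nsdhl* with IFN-γ + *E. coli* (0.0427) and the *Ebp* difference between IL-4 and *E. coli* (0.0447), in 1 model of 18 libraries for *Stard4* with IL-4 (0.0231), and without a filter for *Mylip* in IFN-γ + *E. coli* against IFN-γ (0.0304) and the *Abca1* difference between IL-4 and IFN-γ (0.0471). The synthesis median was 0.34 with *E. coli* at 10 counts or more (7 tested). The median log2FC of synthesis members, IFN-γ + E. coli against unstimulated a-c, was −0.026 without a filter (18 tested) and 0.23 in 1 model of 18 libraries (13 tested).

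Leaving out each library in turn gave, from lowest to highest, 5 to 6 higher and 2 to 3 lower with *E. coli*, 6 to 8 and 1 to 2 with IFN-γ, 11 to 11 and 2 to 3 with IFN-γ + *E. coli*, 2 to 6 and 0 to 1 with IL-4, and 3 to 6 called for IFN-γ + *E. coli* against IFN-γ and 11 to 13 against *E. coli*. Shares over all genes moved too. Without unstimulated a, 9.39% of genes were higher and 12.1% lower with *E. coli*, from 13.5% and 16.7% with all libraries. They were 11.2% and 10.9% with IFN-γ, from 15.6% and 16%, and 20.5% and 21.5% with IFN-γ + *E. coli*, from 23.9% and 25.2%. Without *E. coli* 3 the last pair stayed at 23.9% and 25.2%. IFN-γ + *E. coli* against *E. coli* called 24.7% without *E. coli* 2, from 32.8%. Synthesis medians ran from 0.086 to 0.38, −0.34 to −0.069, 0.027 to 0.37 and −0.37 to −0.09 for *E. coli*, IFN-γ, IFN-γ + *E. coli* and IL-4, and LXR medians from −0.15 to 0.03, 0.08 to 0.48, 0.53 to 0.93 and 0.48 to 0.61. With replicate number as a block among only the 6 libraries compared, IFN-γ + *E. coli* against IFN-γ called 5 members (16.2% of all genes), against 3 among those libraries without a block (10.7%) and 5 among 12 (12.2%). Beside the fit of 12, *Mvd* was lost (0.64, adjusted p = 0.0538), as it was without the block, and *Mylip* was gained (0.43, 0.0191), although the replicate numbers do not pair all libraries.

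The libraries cannot separate stimulus from differences in cell mixture, the sets differ in file layout and depth, and 3 libraries per group leave small changes undetected. RNA levels show neither SREBP cleavage nor sterol content, which were not measured.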
